A study of Mus musculus with 32 samples.

Results

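Nitric oxide (NO) synthesis and arginine handling were followed in mouse lung endothelial cells (ECs) through 7 genes, Nos3, Nos2, Gch1, Ass1, Arg2, Ddah1 and Ddah2, chosen by gene symbol out of the 54429 symbols of the count table. Each symbol corresponded to 1 Ensembl identifier, so that 7 of 54532 identifiers were described, and all 7 passed the filter on low counts. The cells were Veravec, a cultured line of mouse lung ECs, and RNA was sequenced in bulk from 32 libraries in 8 groups of 4 replicates. Each group had been transfected, in 2 rounds, with a control siRNA (si-control) or an siRNA against Dnmt1 (si-dnmt), and Dnmt1 encodes the methyltransferase that copies DNA methylation onto new DNA strands. After transfection the cells of either siRNA received no cytokine, TNF (the protocol names TNFα, 10 ng/mL), IFN (IFNγ, 1000 U/mL) or TNF + IFN, and the cytokines were left on for 16 h. The protocol gives the doses for TNFα or IFNγ, and the same doses are assumed for TNF + IFN. The 8 groups are named si-control, si-control + TNF, si-control + IFN and si-control + TNF + IFN, and likewise for si-dnmt. All groups thus came from 1 cell line and had been exposed to transfection reagent and siRNA, and no group without transfection was among the samples. The replicates were labelled as biological replicates without a culture date, so the p-values measure only the spread between these samples.

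NO is made from L-arginine by NO synthases. In blood vessels the constitutive enzyme of ECs, eNOS (Nos3), makes the small amounts that relax smooth muscle and keep leukocytes and platelets off the wall, whereas the inducible enzyme, iNOS (Nos2), is switched on by inflammatory cytokines and makes much more. Both enzymes need the cofactor tetrahydrobiopterin, whose first and rate-limiting step is GTP cyclohydrolase (Gch1). Argininosuccinate synthase (Ass1) helps to rebuild arginine from citrulline, mitochondrial arginase 2 (Arg2) splits arginine into ornithine and urea, and the dimethylargininases Ddah1 and Ddah2 are the enzymes named for the breakdown of asymmetric dimethylarginine, an endogenous inhibitor of NO synthases.

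In GENCODE M21 (GRCm38), the genes lie on 7 chromosomes, Nos3 at chr5:24364810-24384474, Nos2 at chr11:78920787-78960254, Gch1 at chr14:47153895-47189413, Ass1 at chr2:31470207-31520672, Arg2 at chr12:79130777-79156301, Ddah1 at chr3:145758675-145894277 and Ddah2 at chr17:35059035-35062095, with Gch1 alone on the minus strand. No source used here gives the build and annotation behind the counts. RefSeq promoter windows, each 250 bases before and 50 bases after the annotated start, were at hand for 4 of the 7 genes. Those of Gch1 (chr14:47189364-47189663, minus strand), Ddah1 (chr3:145758442-145758741, plus strand) and Ddah2 (chr17:35058785-35059084, plus strand), all in GRCm38.p6, are printed 5′ to 3′ because Dnmt1 silencing went with more Gch1 RNA and less Ddah2 RNA, while Ddah1 is the paralogue of Ddah2 and was called in none of the 15 comparisons. CG dinucleotides, the sites that Dnmt1 methylates, are in capitals.
Gch1: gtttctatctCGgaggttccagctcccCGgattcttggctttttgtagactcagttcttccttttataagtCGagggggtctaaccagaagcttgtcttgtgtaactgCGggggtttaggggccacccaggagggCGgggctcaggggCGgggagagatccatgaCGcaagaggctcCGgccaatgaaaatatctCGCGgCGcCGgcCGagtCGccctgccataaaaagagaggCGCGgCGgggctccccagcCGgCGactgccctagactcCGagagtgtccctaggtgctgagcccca
Ddah1: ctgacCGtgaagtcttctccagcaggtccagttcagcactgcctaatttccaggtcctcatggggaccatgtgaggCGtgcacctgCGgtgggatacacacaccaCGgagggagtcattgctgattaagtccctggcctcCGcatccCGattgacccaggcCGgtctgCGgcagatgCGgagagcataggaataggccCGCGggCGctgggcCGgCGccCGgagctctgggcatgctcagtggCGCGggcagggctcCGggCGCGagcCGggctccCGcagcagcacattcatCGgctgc
Ddah2: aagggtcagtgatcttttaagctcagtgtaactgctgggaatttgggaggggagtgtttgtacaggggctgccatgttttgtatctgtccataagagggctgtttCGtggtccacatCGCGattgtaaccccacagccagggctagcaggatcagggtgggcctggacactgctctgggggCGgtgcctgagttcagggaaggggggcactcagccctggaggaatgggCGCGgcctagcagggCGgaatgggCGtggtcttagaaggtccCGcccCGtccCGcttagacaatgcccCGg
The windows held 20 (Gch1), 23 (Ddah1) and 12 (Ddah2) CG dinucleotides, the window of Ass1 held 27, and the median over 32851 promoters of the same length was 7. Methylation was not measured in these samples. Motifs known from cytokine-responsive and basal promoters were searched on both strands. The interferon-γ motif GAS (TTCNNNGAA), present in 8.30% of the 32851 promoters, matched once in the Ddah2 window, at position -58 from the start, and in none of the other 3. The κB motif, present in 8.46% of promoters, matched once in the Gch1 window, at position -10, and not in the other 3. The interferon-stimulated response element core (GAAANNGAAA, 3.44% of promoters) matched in none of the 4. TATAAA (13.6%) matched in Gch1 only, at position -188 and on the strand opposite to the printed one. The GC box GGGCGG (35.7%) matched 3 times in Ddah2, 2 times in Gch1, 1 time in Ass1 and not in Ddah1. The GAS and κB matches thus lay in different windows.

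The libraries held 17362546 to 33500030 counts (median 20859668). Dnmt1 itself was lower in every si-dnmt library than in every si-control library, by 13.5-fold without cytokine, 14.6-fold with TNF, 15.5-fold with IFN and 16.9-fold with TNF + IFN. The size of this drop differed between replicates. In the same order the log2 differences were -2.97, -3.34, -2.94 and -3.27 in replicates 1 and 2 alone. In replicates 3 and 4 alone they were -4.54, -4.54, -4.97 and -5.16. Replicates 1 and 2 stood apart from replicates 3 and 4 across all 8 groups. After the group means were removed, libraries with the same replicate number correlated at a median of 0.415 across genes, libraries of the other number of the same pair at 0.409, and libraries of the other pair at -0.410, so values within a pair, or with the replicate number as a block, are given beside results whose call or size they change. All 12 endothelial markers examined passed the filter, with Cdh5 at 847 to 2880 CPM (counts per 1000000 counts of a library). Cldn5 (0.116 to 42.3 CPM) and Vwf (0.863 to 57.4 CPM) were low in some libraries. Of 11 macrophage and leukocyte markers 4 passed, Cd68 (49.1 to 214 CPM), Lyz2 (1.21 to 133 CPM), Cd14 (0.635 to 48.7 CPM) and Csf1r (0.289 to 1.56 CPM). Ptprc, Adgre1 and Itgam had at most 3 counts in any library while Cd3e had 0. The fibroblast list passed with 4 of 7 genes, among them Col3a1 (0.208 to 78.0 CPM) and Dcn (0.448 to 53.8 CPM), while Lum had at most 3 counts and Tcf21 0. The smooth muscle and pericyte list passed with 4 of 7, and the epithelial list with 1 of 7 (Krt18). Unless stated otherwise, levels are CPM after TMM scaling (edgeR's correction for library composition), differences are log2 fold changes ± SE from edgeR's quasi-likelihood F test, which is two-sided, over 15254 genes, and a gene was called where the Benjamini-Hochberg adjusted p was under 0.05.

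**Figure D1:**
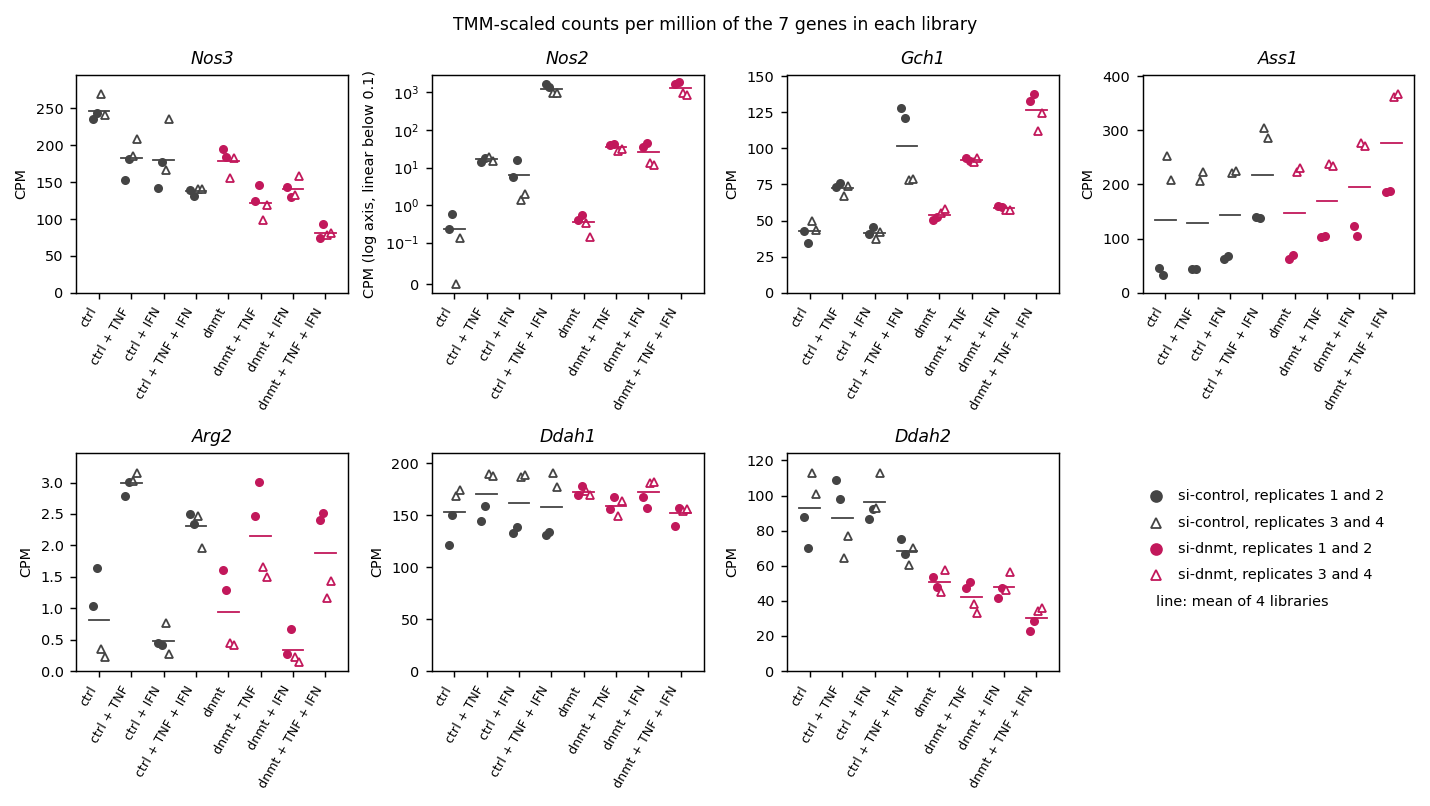
Each point is 1 library, the horizontal axis gives the 8 groups and the vertical axis TMM-scaled CPM, with a separate scale for each gene and for Nos2 an axis that is logarithmic above 0.1 CPM. Nos2 lies below 1 CPM without cytokine and between 848 and 1841 CPM with TNF + IFN, Ddah2 is lower in si-dnmt than in si-control in each cytokine state, and Ass1 splits into a low and a high pair of replicates in every group.

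The first question was how Dnmt1 silencing altered these genes in each cytokine state. Ddah2 and Nos3 were called lower in all 4 states and Gch1 higher in 3 of them, whereas Nos2 was called higher with IFN only. Nos2 with TNF (log2 difference 1.07) and Gch1 with TNF + IFN (0.32) were also higher, not called here but called with the replicate block. Without cytokine, 3 of the 7 genes were called (Gch1 higher, Nos3 and Ddah2 lower) against 18.5% of all genes tested. With TNF the same 3 were called, against 20.0% of all genes. With IFN 4 were called, those 3 and Nos2, against 20.3% of all genes. With TNF + IFN 2 were called, Nos3 and Ddah2, both lower, against 17.7% of all genes. The median log2 difference of the 7 genes ran over these states at 0.17, -0.10, 0.09 and -0.06, beside medians of all genes between -0.01 and 0.00. With the replicate block the number called became 5 with TNF, with Nos2 and Ass1 added, and stayed within 1.5 times of these counts otherwise.

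**Figure D2:**
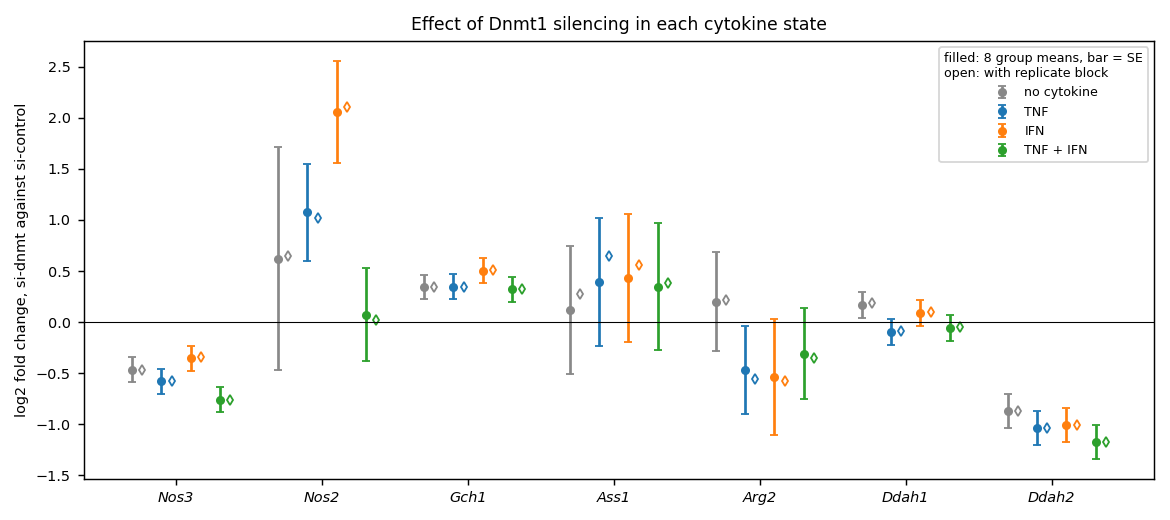
Log2 fold change of si-dnmt against si-control for each gene in each cytokine state, with bars for the SE of the fit over 32 libraries and open diamonds for the fit with the replicate block. Ddah2 lies between -0.87 and -1.17 and Nos3 between -0.35 and -0.76, and the widest bar belongs to Nos2 without cytokine (0.62 ± 1.09).

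The second question was what each cytokine did under either siRNA. The dominant change was in Nos2, which rose with TNF, with IFN and with TNF + IFN under both siRNAs. Gch1 rose wherever TNF was present, and Nos3 fell in each cytokine state of si-control. In si-control cells TNF called 4 of the 7 genes (Nos2, Gch1 and Arg2 higher, Nos3 lower), against 30.8% of all genes. IFN called 2 (Nos2 higher, Nos3 lower), against 14.5% of all genes, and TNF + IFN called 5 (Nos2, Gch1 and Arg2 higher, Nos3 and Ddah2 lower), against 45.2% of all genes. In si-dnmt cells TNF called 3 (Nos2 and Gch1 higher, Nos3 lower), against 21% of all genes. IFN called 1, Nos2, against 9.01% of all genes, and TNF + IFN called 4 (Nos2 and Gch1 higher, Nos3 and Ddah2 lower), against 40.2% of all genes. The IFN count in si-dnmt became 3 with the replicate block, with Nos3 and Arg2 added as lower. The 3 cytokine comparisons of an siRNA share their cytokine-free libraries.

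**Figure D3:**
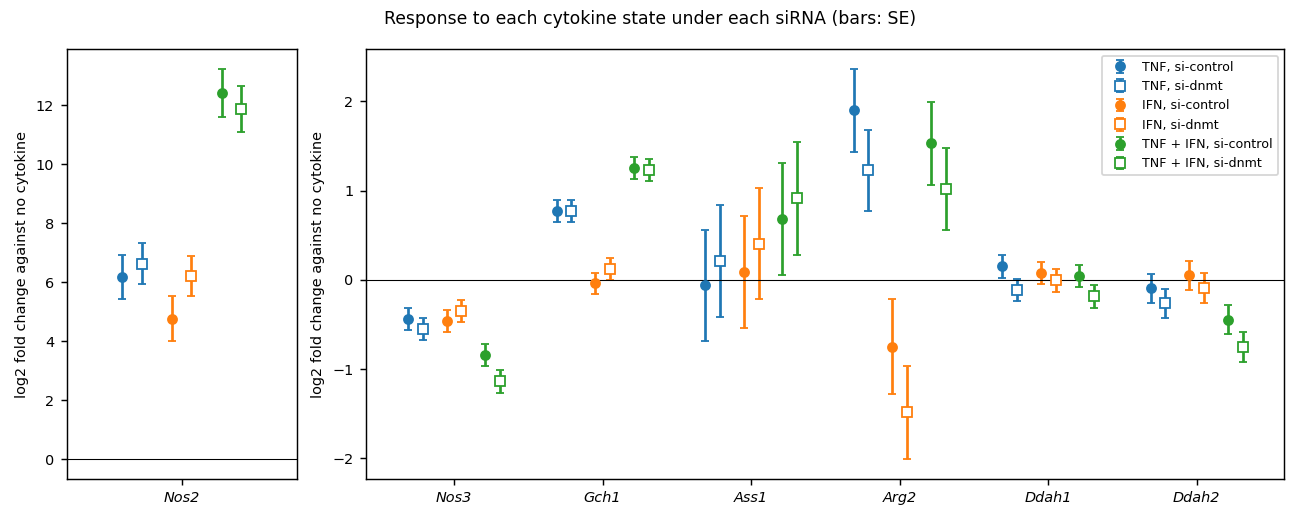
Log2 fold change of each cytokine state against no cytokine for the 7 genes, filled circles for si-control and open squares for si-dnmt, with bars for the SE and a separate panel for Nos2, whose values reach 12.42. Gch1 is near 0.77 with TNF and near 1.2 with TNF + IFN under both siRNAs, while Ddah1 stays between -0.19 and 0.15.

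Nos3, the endothelial synthase, was highest in untreated si-control cells and lowest in si-dnmt cells given both cytokines. The si-control libraries held 235, 244, 269 and 240 CPM, and the si-dnmt libraries 195, 185, 155 and 182 CPM. With TNF the values were 154, 181, 185 and 209 CPM in si-control and 124, 147, 98.9 and 119 CPM in si-dnmt. Every si-dnmt library lay below every si-control library in both of these states. With IFN the values were 141, 177, 166 and 235 CPM in si-control and 144, 129, 132 and 158 CPM in si-dnmt, and here the ranges overlapped. With TNF + IFN they were 139, 131, 140 and 141 CPM in si-control and 73.8, 92.8, 78.5 and 80.7 CPM in si-dnmt, again without overlap. Dnmt1 silencing lowered Nos3 in all 4 states, with log2 differences of -0.46 ± 0.12 (no cytokine), -0.58 ± 0.12 (TNF), -0.35 ± 0.12 (IFN) and -0.76 ± 0.12 (TNF + IFN, 1.69-fold). The adjusted p-values were 0.00832, 0.00123, 0.0416 and 7.56e-05 in that order. The IFN call was lost when any one of 5 libraries was left out, namely si-control + IFN replicate 2 (-0.37) or 4 (-0.20) and si-dnmt + IFN replicate 1 (-0.36), 2 (-0.31) or 3 (-0.32), and when only the groups compared were fitted (adjusted p = 0.147). In replicates 1 and 2 alone the differences with TNF (-0.31, adjusted p = 0.058) and IFN (-0.24, adjusted p = 0.15) were not called, against -0.86 and -0.47, both called, in replicates 3 and 4 alone. In a bulk sample, fewer cells making an RNA and less RNA per cell cannot be told apart.

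Cytokines lowered Nos3 as well. The log2 changes in si-control cells were -0.44 ± 0.12 (TNF), -0.46 ± 0.12 (IFN) and -0.84 ± 0.12 (TNF + IFN), at adjusted p-values of 0.00727, 0.0106 and 2.38e-06. The IFN call was lost in replicates 3 and 4 alone (-0.34, adjusted p = 0.054). In si-dnmt cells they were -0.55 ± 0.12 (TNF) and -1.14 ± 0.13 (TNF + IFN, 2.20-fold), at adjusted p-values of 0.00174 and 2.06e-08, while IFN alone gave -0.35 ± 0.12 (adjusted p = 0.0808, or 0.026 with the replicate block). From untreated si-control to si-dnmt + TNF + IFN the mean went from 247 ± 15.1 to 81.4 ± 8.10 CPM (SD, n = 4). In the order of the 8 means, the untreated si-control group was clear of its neighbour and si-dnmt + TNF + IFN was clear of its own, whereas the 6 groups between overlapped from neighbour to neighbour. The summed endothelial markers moved with TNF in the same direction, from 6701 to 10123 CPM in si-control and 6357 to 9350 CPM in si-dnmt to 4332 to 6139 CPM in si-control + TNF and 3963 to 5570 CPM in si-dnmt + TNF, and their part in the Nos3 values was not tested. Nos3 overlaps Atg9b on the opposite strand, and Atg9b was counted at 3.82 to 13.04 CPM. Whether the counting used strand is not stated in these sources.

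Nos2, the inducible synthase, was close to absent without cytokine. Raw counts were 5, 11, 0 and 3 in si-control and 9, 13, 10 and 4 in si-dnmt, or at most 0.583 CPM, and the count of 0 in si-control replicate 3 allowed up to 0.132 CPM at 3 counts. TNF brought it to 14.4, 18.1, 19.0 and 15.1 CPM in si-control and to 39.1, 42.2, 28.3 and 31 CPM in si-dnmt. The 2 groups with TNF did not overlap. IFN gave 5.60, 16.1, 1.36 and 1.94 CPM in si-control and 35.8, 44, 13.2 and 11.7 CPM in si-dnmt, so that replicates 1 and 2 were above replicates 3 and 4 under both siRNAs. Each si-dnmt library with IFN was above the si-control library of the same replicate number, although the ranges overlapped. TNF + IFN raised Nos2 to 1703, 1412, 965 and 974 CPM in si-control and 1652, 1841, 976 and 848 CPM in si-dnmt. In those 8 libraries Nos2 took 0.083% to 0.17% of all counts and ranked between 45 and 121 among all genes by count.

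Against no cytokine, the log2 change of Nos2 in si-control cells was 6.18 ± 0.74 (TNF), 4.77 ± 0.77 (IFN) and 12.42 ± 0.81 (TNF + IFN), at adjusted p-values of 3.01e-07, 3.88e-05 and 4.37e-13. In si-dnmt cells it was 6.63 ± 0.68, 6.2 ± 0.68 and 11.87 ± 0.77, at adjusted p-values of 3.97e-08, 7.79e-08 and 5.72e-13. Because the untreated counts are so few, the ratio of summed counts, each divided by the summed TMM-scaled library sizes of its group, was also taken. It was 5768-fold with TNF + IFN in si-control (95% counting interval 3694 to 9581, exact, which covers counting error only) and 3753-fold in si-dnmt (2711 to 5358). Of the 19 untreated counts in si-control, 11 came from replicate 2, without which the log2 changes became 7.04 (TNF), 5.63 (IFN) and 13.28 (TNF + IFN). The IFN change was 3.66 without si-control + IFN replicate 2. In replicates 1 and 2 alone the si-control changes were 5.34, 4.78 and 11.93, and in replicates 3 and 4 alone 7.89, 4.52 and 13.71, all called. Between the siRNAs, Nos2 was 4.16-fold higher in si-dnmt with IFN (log2 2.06 ± 0.50, adjusted p = 0.00411), 1.86 in replicates 1 and 2 alone and 2.90 in replicates 3 and 4 alone on the log2 scale, both called. Without si-control + IFN replicate 2, the highest library of its group, the difference was 3.13. With only the 2 IFN groups fitted the adjusted p was 0.0810. With TNF the log2 difference was 1.07 ± 0.47 (adjusted p = 0.114), but 1.02 with the replicate block (adjusted p = 0.0077), and it was called within each pair of replicates (1.32 and 0.79). With TNF + IFN it was 0.07 ± 0.46 (adjusted p = 0.942) and turned to -0.09 in replicates 3 and 4, and without cytokine it was 0.62 ± 1.09 (adjusted p = 0.752). The sum of the 11 macrophage and leukocyte markers was 208 to 276 CPM in si-control and 104 to 171 CPM in si-control + TNF + IFN. Cd68, Lyz2, Cd14 and Csf1r were those that passed the filter, with Cd68 alone at 49.1 to 214 CPM. The part of these markers in the Nos2 values was not tested.

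Put on a linear scale, the rise of Nos2 with both cytokines was far above the sum of the rises with each. Within replicate numbers of si-control the combined rise was 42.7 to 87.0 times the sum of the single rises (median 52.6). In si-dnmt the factor was 20.0 to 23.9 (median 22.0), below all 4 si-control values. The single rises were larger in si-dnmt (40.8 to 85.1 CPM in sum) than in si-control (16.8 to 33.1 CPM), while the combined rises overlapped (965 to 1703 CPM in si-control and 848 to 1841 CPM in si-dnmt). The difference between the siRNAs in this factor was not tested on the linear scale. On the log2 scale, where independent effects multiply, the TNF by IFN interaction of Nos2 was 1.48 ± 1.17 in si-control (adjusted p = 0.800) and -0.96 ± 0.85 in si-dnmt (adjusted p = 1), neither called.

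**Figure D4:**
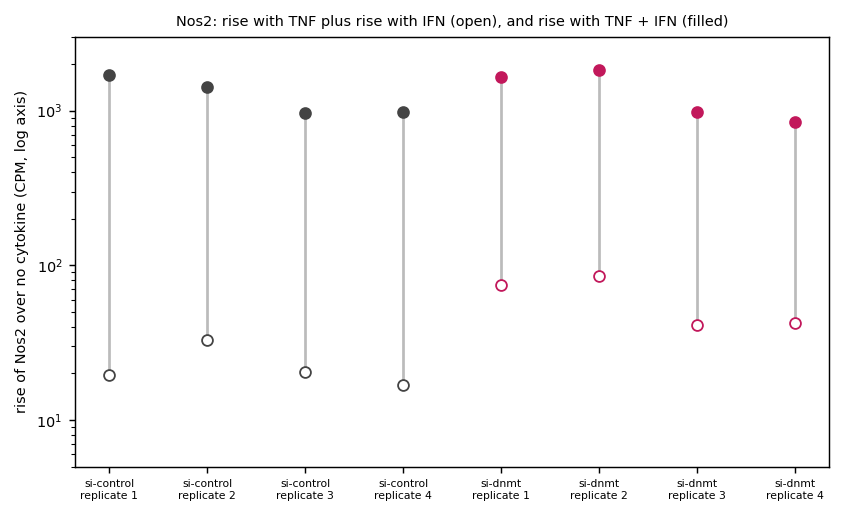
For each siRNA and replicate number, the open symbol is the rise of Nos2 with TNF plus its rise with IFN and the filled symbol is its rise with TNF + IFN, both in CPM over the cytokine-free library on a log axis. The filled symbols lie between 848 and 1841 CPM under both siRNAs, and the open ones between 16.8 and 33.1 CPM in si-control and between 40.8 and 85.1 CPM in si-dnmt.

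Levels per kilobase of exon allow the synthases to be compared with each other. Without cytokine Nos3 was at 59.8 ± 3.64 CPM per kb in si-control and 43.4 ± 4.05 CPM per kb in si-dnmt (SD, n = 4), and Nos2 at 0.0540 ± 0.0565 and 0.0814 ± 0.0391 CPM per kb. With TNF alone Nos3 still exceeded Nos2 by 10.4 to 14.8 times per kb in si-control libraries and by 3.39 to 4.09 times in si-dnmt libraries. The order was inverted with TNF + IFN, where Nos2 exceeded Nos3 by 8.62 ± 2.55 times in si-control and 15.3 ± 5.36 times in si-dnmt. The lowest of these 8 ratios was 6.44 and the highest 20.97.

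**Figure D5:**
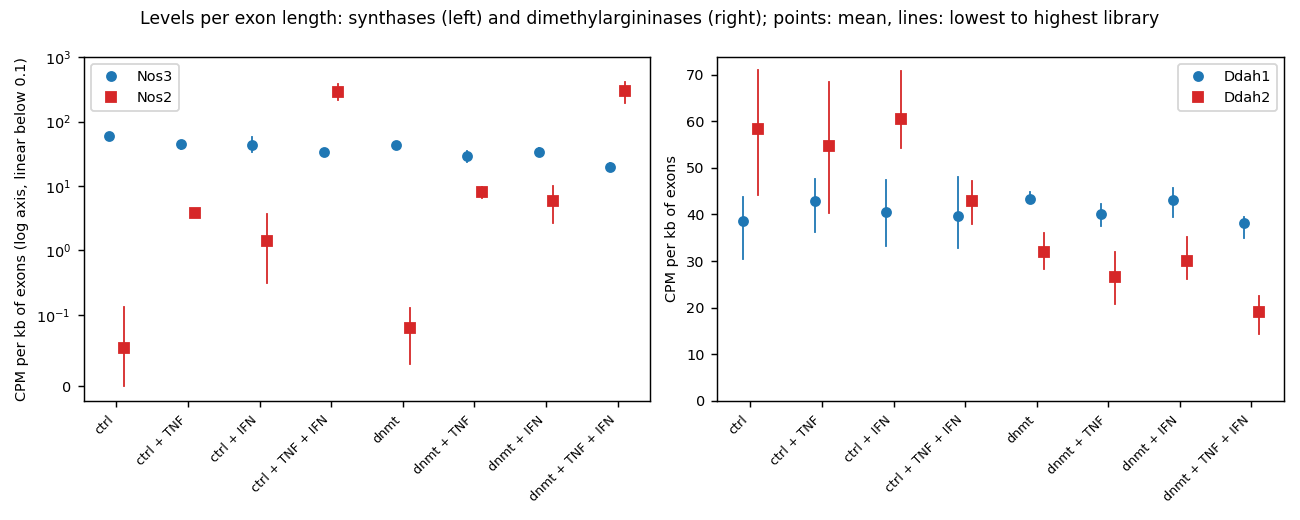
Mean CPM per kb of exon in the 8 groups, with lines from the lowest to the highest library, for Nos3 and Nos2 (left, log axis) and for Ddah1 and Ddah2 (right). Nos2 crosses above Nos3 only in the TNF + IFN groups, and Ddah1 lies above Ddah2 in all si-dnmt groups.

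Gch1, which limits cofactor supply, was raised both by TNF and by Dnmt1 silencing. Without cytokine it was 42.9, 34.5, 49.4 and 43.4 CPM in si-control and 50.3, 52.6, 54.9 and 58.0 CPM in si-dnmt. With TNF it was 73.4, 75.8, 67.2 and 73.6 CPM in si-control and 93.4, 91.2, 90.8 and 93.5 CPM in si-dnmt. With IFN it was 40.7, 45.3, 37.3 and 42.3 CPM in si-control and 60.3, 59.7, 57.6 and 57.3 CPM in si-dnmt. In these 3 states every si-dnmt library was above every si-control library. With TNF + IFN the si-control libraries divided into 128 and 121 CPM for replicates 1 and 2 and 78.1 and 78.8 CPM for replicates 3 and 4, against 133, 137, 112 and 124 CPM in si-dnmt. The log2 differences between the siRNAs were 0.34 ± 0.12 (no cytokine), 0.35 ± 0.12 (TNF), 0.50 ± 0.12 (IFN, 1.42-fold) and 0.32 ± 0.12 (TNF + IFN). Their adjusted p-values were 0.0474, 0.0411, 0.00365 and 0.0647, and the last became 0.030 with the replicate block. The TNF + IFN difference was 0.11 in replicates 1 and 2 alone (adjusted p = 0.42) and 0.59, called, in replicates 3 and 4 alone.

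The Gch1 calls without cytokine and with TNF sat near the threshold. Both were also made with the replicate block (adjusted p = 0.025 and 0.020), in each pair of replicates alone and in DESeq2. Neither was made without the low-count filter (adjusted p = 0.091 and 0.11). Leaving out any 1 of the 8 libraries ended the TNF call, at log2 differences of 0.31 to 0.37. The cytokine-free call ended on leaving out replicate 1 (0.35), 2 (0.25) or 4 (0.36) of si-control, or replicate 2 (0.36), 3 (0.33) or 4 (0.31) of si-dnmt. With TNF + IFN it was gained without si-control + TNF + IFN replicate 1 (0.45) or 2 (0.42). TNF raised Gch1 by 0.77 ± 0.12 in si-control (adjusted p = 1.89e-05) and 0.77 ± 0.12 in si-dnmt (adjusted p = 2.84e-05), and TNF + IFN by 1.25 ± 0.12 (adjusted p = 1.73e-09) and 1.23 ± 0.12 (adjusted p = 2.93e-09). In si-control the TNF + IFN rise was 1.70 in replicates 1 and 2 alone and 0.76 in replicates 3 and 4 alone, both called. IFN alone gave -0.04 ± 0.12 and 0.12 ± 0.12, neither called.

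Ass1, of the citrulline-to-arginine route, was set mainly by the pair of replicates. In si-control the libraries held 45.9, 33.7, 252 and 208 CPM, and in si-dnmt 62.1, 69.6, 223 and 231 CPM. With TNF the values were 44.7, 43.5, 206 and 224 CPM in si-control and 102, 105, 238 and 234 CPM in si-dnmt. IFN gave 61.6, 67.9, 221 and 225 CPM in si-control and 124, 106, 277 and 271 CPM in si-dnmt. All groups so far fell into a low and a high pair. Both cytokines together gave 140, 139, 304 and 285 CPM in si-control and 187, 188, 362 and 366 CPM in si-dnmt. Both libraries of replicates 3 and 4 were above both of replicates 1 and 2 in 8 of 8 groups, by 1.61 on average on the log2 scale, a difference larger than that of 98.7% of the genes tested. Ass1 was called in none of the 10 comparisons of siRNA or cytokine without the block.

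With the replicate block, TNF + IFN raised Ass1 by 1.02 in si-control (adjusted p = 0.00026) and 1.12 in si-dnmt (adjusted p = 8.4e-05), and Dnmt1 silencing raised it by 0.65 with TNF (adjusted p = 0.022) and 0.56 with IFN (adjusted p = 0.045). The size differed between the pairs. In replicates 1 and 2, where the level was low, TNF + IFN changed Ass1 by 1.82 in si-control and 1.52 in si-dnmt, and in replicates 3 and 4 by 0.36 and 0.68, all 4 called. The siRNA differences in replicates 1 and 2 were 0.73, 1.23, 0.81 and 0.43 over the cytokine states, all called, and in replicates 3 and 4 they were -0.02, 0.14, 0.30 and 0.31, of which those with IFN and with TNF + IFN were called.

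Arg2, the mitochondrial arginase, was near the detection limit, with 5 to 70 counts per library. It was 1.03, 1.64, 0.352 and 0.224 CPM in si-control and 1.60, 1.28, 0.444 and 0.417 CPM in si-dnmt. TNF brought it to 2.79, 3.00, 3.03 and 3.16 CPM in si-control and 2.47, 3.00, 1.66 and 1.49 CPM in si-dnmt. All 4 TNF libraries of si-control were above the untreated ones. IFN libraries held 0.448, 0.416, 0.764 and 0.270 CPM in si-control and 0.278, 0.673, 0.230 and 0.144 CPM in si-dnmt, while both cytokines gave 2.50, 2.34, 2.47 and 1.96 CPM in si-control and 2.40, 2.52, 1.16 and 1.43 CPM in si-dnmt. In si-control cells Arg2 rose by 1.90 ± 0.47 on the log2 scale with TNF (adjusted p = 0.00248) and by 1.53 ± 0.47 with TNF + IFN (adjusted p = 0.00899). Replicates 1 and 2 alone gave 1.14 and 0.89 for these rises, and replicates 3 and 4 alone 3.39 and 2.91, all called. IFN in si-control gave -0.75 ± 0.53 over all 4 replicates, not called, but -1.58 and called in replicates 1 and 2 alone, against 0.83, not called, in replicates 3 and 4.

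In si-dnmt cells the log2 changes of Arg2 were 1.23 ± 0.46 (TNF), -1.48 ± 0.52 (IFN) and 1.02 ± 0.46 (TNF + IFN), at adjusted p-values of 0.0549, 0.0781 and 0.0805. All 3 were called with the replicate block (adjusted p = 0.0042, 0.016 and 0.011). Leaving out a single library also brought calls, with TNF without si-dnmt replicate 1 (1.61) or si-dnmt + TNF replicate 4 (1.36), with IFN without si-dnmt replicate 3 (-1.72) or 4 (-1.73) or si-dnmt + IFN replicate 2 (-2.12), and with TNF + IFN without si-dnmt replicate 1 (1.41). None of the siRNA differences of Arg2, between -0.54 and 0.20, was called over all 4 replicates. In replicates 3 and 4 alone Arg2 was called lower in si-dnmt with TNF (-0.97, adjusted p = 0.021) and IFN (-1.50, adjusted p = 0.044), against -0.08 and 0.19 in replicates 1 and 2, neither called. Arg2 overlaps Vti1b on the opposite strand, which was counted at 50.8 to 77.6 CPM, far above Arg2 itself.

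The dimethylargininases parted. Ddah2 was 87.6, 70.3, 113 and 101 CPM in si-control and 53.6, 47.8, 44.9 and 57.4 CPM in si-dnmt. With TNF it was 109, 98.0, 64.2 and 76.8 CPM in si-control and 47.6, 50.8, 38.1 and 33.2 CPM in si-dnmt. With IFN it was 86.6, 92.5, 92.9 and 113 CPM and 41.6, 47.4, 46.2 and 56.2 CPM. In all 3 states each si-dnmt library was below each si-control library. With TNF + IFN the values were 75.1, 67.0, 60.4 and 70.3 CPM in si-control and 22.8, 28.6, 34.0 and 35.7 CPM in si-dnmt, again without overlap. The log2 differences were -0.87 ± 0.16 (no cytokine), -1.04 ± 0.17 (TNF), -1.01 ± 0.17 (IFN) and -1.17 ± 0.17 (TNF + IFN), or 1.83-, 2.05-, 2.01- and 2.25-fold lower. The adjusted p-values were 0.000393, 4.87e-05, 7.17e-05 and 1.25e-05. The call held in each pair of replicates alone in all 4 states, with values from -0.63 to -1.47.

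The lowest si-control group and the highest si-dnmt group of Ddah2 did not overlap, and within either siRNA neighbouring groups did. TNF + IFN lowered Ddah2 by -0.75 ± 0.17 in si-dnmt (adjusted p = 0.000576). In si-control the change was -0.45 ± 0.16 (adjusted p = 0.0269), and the call ended when replicate 3 (-0.34) or 4 (-0.41) of si-control, or replicate 3 of si-control + TNF + IFN (-0.40), was left out, and in replicates 1 and 2 alone (-0.14, adjusted p = 0.36). With TNF alone in si-control the direction turned between the pairs, 0.41 in replicates 1 and 2 and -0.60 in replicates 3 and 4, both called, and -0.10 ± 0.16 over all 4. In si-dnmt the TNF change was -0.52 and called in replicates 3 and 4 alone, against -0.26 ± 0.16 over all 4. The summed smooth muscle and pericyte markers, mostly Acta2 (6.94 to 227 CPM), moved with the siRNA, from 8.16 to 69.9 CPM over the si-control libraries to 39.8 to 231 CPM over the si-dnmt libraries, while Rgs5 had at most 1 count and Cspg4 at most 3. The summed fibroblast markers, mostly Col3a1 (0.208 to 78.0 CPM) and Dcn (0.448 to 53.8 CPM), went the other way. They were 43.4 to 80.6 CPM in si-control and 17.6 to 34.5 CPM in si-dnmt, without overlap. With IFN they were 22.5 to 38.2 CPM in si-control and 10.8 to 17.8 CPM in si-dnmt, also without overlap. The ranges overlapped with TNF and with TNF + IFN. Pdgfra and Col1a1, which also passed the filter, reached at most 3.14 and 2.73 CPM, so the sum does not show their direction. The summed leukocyte markers were 208 to 276 CPM in si-control and 144 to 207 CPM in si-dnmt, and their ranges overlapped between the siRNAs in the other 3 states. The part of these 3 lists in the siRNA differences of the 7 genes was not tested.

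Ddah1 held its level more closely than the others. Group means ran from 152 to 173 CPM, with single libraries from 121 to 191 CPM, and all neighbouring groups overlapped. In si-control, replicates 3 and 4 (168 and 174 CPM) were above replicates 1 and 2 (121 and 150 CPM). The siRNA differences were 0.17 ± 0.13, -0.10 ± 0.13, 0.09 ± 0.13 and -0.06 ± 0.13 over the cytokine states, with adjusted p from 0.394 to 0.806. In replicates 1 and 2 alone the difference without cytokine was 0.37 and called, and in replicates 3 and 4 alone those with TNF (-0.27) and TNF + IFN (-0.25) were called. Per kb of exon, the ratio of Ddah1 to Ddah2 was 0.673 ± 0.133 in si-control and 1.37 ± 0.178 in si-dnmt without cytokine, and it reached 2.05 ± 0.328 in si-dnmt + TNF + IFN (SD, n = 4). In si-dnmt all 16 libraries had more Ddah1 than Ddah2 per kb, the lowest ratio being 1.18. Single si-control libraries also exceeded 1, with ratios up to 1.18 with TNF and 1.26 with TNF + IFN. The means of these si-control groups were 0.835 ± 0.300 and 0.943 ± 0.251.

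Whether silencing altered the cytokine responses was tested by interaction terms. None of the 7 genes was called by edgeR for siRNA by TNF (against 0.0328% of all genes), siRNA by IFN (0.0459%) or siRNA by TNF + IFN (0.531%), none had an unadjusted p under 0.05, and DESeq2 called 0 in each. The smallest unadjusted p-values were those of Nos3 for TNF + IFN, -0.29 ± 0.17 (unadjusted p = 0.10), and of Ddah1 for TNF, -0.27 ± 0.18 (unadjusted p = 0.15). For Ddah2, with -0.30 ± 0.23 for TNF + IFN (unadjusted p = 0.20), the pairs of replicates differed, -0.84 in replicates 1 and 2 (adjusted p = 0.0042) and 0.16 in replicates 3 and 4 (adjusted p = 0.64). The TNF by IFN interaction called none of the 7 genes in si-control (against 1.06% of all genes) or in si-dnmt (0.354%), and DESeq2 called 0 in both. Gch1 in si-control, with 0.52 ± 0.17, was the 1 gene with an unadjusted p under 0.05 in edgeR's test (adjusted p = 0.185), and none was in si-dnmt. Leaving out replicate 3 (0.65) or 4 (0.64) of si-control + TNF + IFN brought the call, as did replicates 1 and 2 alone (0.56). Ass1 in si-control was 0.65 ± 0.88 in the full fit and 0.78 with the replicate block, neither called, but it was called in each pair of replicates alone, at 0.94 (adjusted p = 0.00045) and 0.50 (adjusted p = 0.014). Ddah2 was called in replicates 1 and 2 alone under both siRNAs (-0.74 in si-control and -0.75 in si-dnmt), against -0.05 and -0.04 in replicates 3 and 4.

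Of 46 further genes of NO synthesis, tetrahydrobiopterin, arginine transport and breakdown, protein arginine methylation and cGMP signalling, 37 passed the filter. Nos1, Arg1, the soluble guanylate cyclase subunits Gucy1a1 and Gucy1b1 and the phosphodiesterases Pde5a, Pde2a and Pde3a were among the 9 that did not, with at most 20 counts in any library. Dnmt1 silencing called 2 higher and 4 lower without cytokine, 3 and 4 with TNF, 3 and 4 with IFN and 3 and 4 with TNF + IFN. These were 16.2%, 18.9%, 18.9% and 18.9% of the 37, close to the 18.5%, 20.0%, 20.3% and 17.7% of all genes tested. With the replicate block the totals became 12, 14, 16 and 11. Qdpr, the reductase that regenerates tetrahydrobiopterin, fell in all 4 states, by log2 changes of -1.65 ± 0.19, -1.47 ± 0.19, -1.33 ± 0.19 and -1.42 ± 0.19, from 39.9 ± 5.42 to 12.7 ± 3.61 CPM without cytokine (SD, n = 4). Prmt6, a methyltransferase that makes asymmetric dimethylarginine in proteins, also fell in all 4 states (-0.73 ± 0.16, -0.72 ± 0.16, -0.69 ± 0.17 and -0.54 ± 0.17). The last of these calls was lost without si-control + TNF + IFN replicate 3 (-0.42) or si-dnmt + TNF + IFN replicate 1 (-0.53) or 2 (-0.51).

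Gchfr, the feedback regulatory protein of GTP cyclohydrolase, was lower in si-dnmt without cytokine (-0.74 ± 0.22, adjusted p = 0.018), a call that ended when replicate 3 (-0.66) or 4 (-0.67) of si-control, or replicate 1 (-0.67) or 2 (-0.65) of si-dnmt, was left out. Slc3a2, a heavy chain of amino acid transporters, was lower with TNF (-0.83 ± 0.22), a call lost without si-control + TNF replicate 4 (-0.56). Azin2, an antizyme inhibitor of the polyamine route, was lower with IFN (-1.0 ± 0.28) and TNF + IFN (-1.21 ± 0.29), and Prkg1, the cGMP-dependent kinase, was higher with TNF + IFN (0.66 ± 0.17).

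In si-control cells TNF called 8 of the 37 higher and 5 lower, IFN 2 and 1, and TNF + IFN 10 and 11. These were 35.1%, 8.11% and 56.8% of the 37, against 30.8%, 14.5% and 45.2% of all genes. In si-dnmt cells the counts were 6 and 2, 0 and 0, and 5 and 7, or 21.6%, 0% and 32.4%, against 21%, 9.01% and 40.2% of all genes. For IFN in si-dnmt, 3 of the 37 had an unadjusted p under 0.05 in edgeR and DESeq2 called 1. With the replicate block IFN called 8 in si-control and 5 in si-dnmt, and TNF called 14 in si-dnmt. With TNF in si-control, Gchfr fell by 1.15 ± 0.22 on the log2 scale and Nos1ap, an adaptor of neuronal NO synthase, fell from 57 counts in the 4 untreated libraries to 9 (log2 -2.66 ± 0.75). TNF + IFN lowered Gchfr from 9.02 ± 1.99 to 2.42 ± 0.616 CPM (SD, n = 4, log2 -1.90 ± 0.23, adjusted p = 1.3e-07), the opposite direction to Gch1, and Nos1ap from 57 counts to 10. Slc7a2, a cationic amino acid transporter that carries arginine, rose from 12 counts in 4 libraries to 223 with TNF + IFN, a ratio of 21.1 after scaling to library size (95% counting interval 11.8 to 41.4). The interval covers counting error only and not the spread between replicates. The untreated counts were 8, 4, 0 and 0 in replicates 1 to 4, so the ratio rests on replicates 1 and 2 for its lower term. IFN alone raised Azin2 (1.54 ± 0.29), lowered Odc1 (-1.20 ± 0.24), which makes putrescine from ornithine, and raised Oat (0.38 ± 0.12), which turns ornithine towards proline and glutamate. The Oat call ended when replicate 1 (0.30) or 2 (0.34) of si-control, or replicate 2 (0.38), 3 (0.30) or 4 (0.31) of si-control + IFN, was left out.

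Among the 3 siRNA by cytokine interactions, 1 of the 37 genes was called, Slc7a1, which is named here after its values were seen. This main arginine carrier of many cells rose with TNF + IFN by 1.22 ± 0.13 in si-control and 0.33 ± 0.13 in si-dnmt, an interaction of -0.89 ± 0.18 (adjusted p = 0.019), which was lost without si-dnmt + TNF + IFN replicate 4. The interaction was called in each pair of replicates alone (-0.55 and -1.22). The rise in si-dnmt (adjusted p = 0.039) was no longer called without replicate 1, 2 or 4 of si-dnmt or replicate 1, 2 or 3 of si-dnmt + TNF + IFN (0.26 to 0.40 over the 8 fits that left out 1 library), with RLE scaling (adjusted p = 0.052), without the low-count filter (adjusted p = 0.090) or in replicates 3 and 4 alone (0.13, adjusted p = 0.24). The siRNA by TNF and siRNA by IFN interactions called 0 of 37 in edgeR (4 and 1 with an unadjusted p under 0.05) and 1 and 0 in DESeq2. For siRNA by TNF, Slc7a1 was at -0.83 ± 0.18 (unadjusted p = 9.5e-05, adjusted p = 0.13). This was called with the replicate block (adjusted p = 0.0095) and in DESeq2 (adjusted p = 0.0070). TNF alone changed Slc7a1 by 1.02 ± 0.13 in si-control and 0.19 ± 0.13 in si-dnmt. The TNF by IFN interaction called 0 in si-control and 0 in si-dnmt (5 and 4 with an unadjusted p under 0.05), and DESeq2 called 1 and 0.

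Genes with the most similar profiles over the 8 groups were ranked by the root mean square (RMS) difference between centred log2 group means, among 12568 genes. Nos2 stood nearest to the chemokines Cxcl11 (RMS difference 1.04), Ccl12 (1.45) and Ccl5 (1.56), at a spread of its own of 4.28. Nos3 was closest to Pcdhga6 (0.0873), Mtss1 (0.0896) and Sema6b (0.0918), with a spread of 0.449. Gch1 was closest to Slc41a2 (0.116), Dapp1 (0.118) and Nfkbib (0.12), with a spread of 0.551. Ddah2 was closest to Vim (0.108), Ier5l (0.135) and Spef1 (0.142), with a spread of 0.566. The nearest to Ass1 were Nt5dc3, Myd88 and Mertk, to Arg2 Plpp3, Ltbp2 and Adamts7, and to Ddah1 Erg28, Gtf2b and Casc3. The profiles share their libraries and 8 points each, and are given as a description.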

How the data were processed

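Counts of reads per gene were deposited for each of 32 libraries and as 1 merged table. The authors made these counts with featureCounts after adapter trimming with cutadapt 4.9 and quality control with FastQC 0.12.1 and MultiQC 1.27.1, and DESeq2 is also named, all per the submitters' processing notes. The aligner, genome build, annotation and strand setting were not given in the sources used here. The merged table and the per-library tables, summed by symbol, differed in 0 cells, and each column matched 1 sample. Per-library counts by Ensembl identifier were analysed.

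Counts were fitted with edgeR 4.0.16 (R 4.3.3, limma 3.58.1) by the quasi-likelihood F test with 8 group means over all 32 libraries, TMM scaling and filterByExpr at a minimum count of 10, which left 15254 of 54532 genes. P-values were adjusted by Benjamini-Hochberg over all genes tested, and genes with an adjusted p under 0.05 were called. SEs were taken from the log2 fold change and its F statistic. Exon lengths came from GENCODE M21. The fit was tested on simulated data. Alternatives were RLE scaling, no low-count filter, the replicate number as a block, only the groups compared, replicates 1 and 2 or 3 and 4 alone, DESeq2 1.42.0, and leaving out each library. The replicate block was checked on the correlation of deviations from the group means across genes, and all 112 of 112 pairs of libraries with the same number correlated above 0.1 (0.297 to 0.617), as did the other number of the same pair of replicates (0.209 to 0.564), while the labels name no shared day.

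The 7 genes and all lists were chosen with earlier results of these data known. Further pathway genes are named where they had one of the 3 largest called changes in an siRNA comparison or a si-control cytokine comparison, or were called alike in all 4 siRNA comparisons. A gene that this rule also names is not reported here, though the counts over the list include it.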

Additional observations from a re-analysis of the deposited data

Results flagged for a closer look

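Nos3 in si-control + TNF + IFN had 1 library at 131 CPM, below the others, the nearest of which was at 139.1 CPM. Its gap took 0.842 of the range of the group, above the limit of 0.83 for 4 samples. Of 56 groups examined this was the 1 found, and about 1 in 20 would be found by chance.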

How the results depend on the processing

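RLE scaling, no low-count filter, DESeq2 and fitting only the groups compared kept the direction of the 7 genes in all comparisons, apart from Gch1 in the siRNA by TNF interaction (main value 0.00), which was -0.0157 under RLE scaling, -0.0185 without the filter, -0.0189 with the groups compared and -0.0154 in DESeq2, and Ddah1 with IFN in si-dnmt, which was 0.000397 without the filter. The replicate block turned no direction and moved the number of the 7 genes called by over 1.5 times in 2 comparisons, si-dnmt against si-control with TNF (5 against 3) and IFN in si-dnmt (3 against 1). Over all genes it gave 5097 against 3050 and 2892 against 1375 in these comparisons. The pairing changed no other count of the 7 genes beyond 1.5 times, and it added 10 calls of single genes and ended none. DESeq2 called 3 with IFN in si-dnmt. Without the low-count filter 4 calls of single genes ended. They were Nos3 (siRNA with IFN, adjusted p = 0.12), Gch1 (siRNA without cytokine, 0.091, and with TNF, 0.11) and Ddah2 (TNF + IFN in si-control, 0.057). With only the groups compared, 2 of 4 were called for the siRNA with IFN and 1 of 2 for IFN in si-control. The 4 calls ended were Nos3 (siRNA with IFN, adjusted p = 0.147, and IFN in si-control, 0.079), Nos2 (siRNA with IFN, 0.081) and Gch1 (siRNA without cytokine, 0.070). The 1 gained was Nos2 (siRNA with TNF, 0.0028). Nos2 (siRNA, no cytokine) and Arg2 (siRNA with IFN, and IFN in si-control) did not pass the filter in those fits. DESeq2 gave no adjusted p for Arg2 in the siRNA by TNF interaction.

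The counts moved most between pairs of replicates, where the cause was not tested. Counts over all genes rose in many of these fits too and are given below. In replicates 1 and 2 alone, 5 genes were called for the siRNA without cytokine (3 in the full fit), 4 for IFN in si-control (2), 5 for TNF in si-dnmt (3), 4 for IFN in si-dnmt (1), 1 for the siRNA by TNF + IFN interaction (0), 3 for TNF by IFN in si-control (0) and 1 in si-dnmt (0). In replicates 3 and 4 alone, 6 were called for the siRNA with TNF (3), 5 with TNF + IFN (2), 1 for IFN in si-control (2), 5 for TNF (3) and 2 for IFN (1) in si-dnmt, and 1 for TNF by IFN in si-control (0).

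Directions also turned there, mostly for values near 0. Replicates 1 and 2 alone gave 0.0206 (siRNA by TNF) for Nos3; 0.18 (IFN in si-control) and -0.11 (siRNA by TNF) for Gch1; 0.16 (TNF in si-control) and -0.30 (siRNA by TNF + IFN) for Ass1; 0.19 (siRNA with IFN), 0.0185 (siRNA with TNF + IFN) and 0.058 (siRNA by IFN) for Arg2; 0.0934 (siRNA with TNF), 0.16 (siRNA with TNF + IFN) and -0.0146 (TNF + IFN in si-control) for Ddah1; and 0.41 (TNF in si-control) for Ddah2. Replicates 3 and 4 alone gave -0.14 (TNF by IFN in si-control) for Nos3, -0.0895 (siRNA with TNF + IFN) and -0.98 (siRNA by TNF) for Nos2, 0.31 (siRNA by TNF + IFN) for Gch1, -0.0211 (siRNA without cytokine) and -0.0465 (IFN in si-control) for Ass1, and 0.83 (IFN in si-control) and -1.31 (TNF by IFN in si-control) for Arg2. For Ddah1 they gave -0.000377 (siRNA without cytokine), -0.0506 (siRNA with IFN) and 0.0848 (IFN in si-dnmt), and for Ddah2 -0.0558 (IFN in si-control), 0.00595 (IFN in si-dnmt), 0.0828 (siRNA by TNF), 0.0617 (siRNA by IFN) and 0.16 (siRNA by TNF + IFN).

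Leaving out 1 library at a time gave 1 to 2 genes called for IFN in si-dnmt and 0 to 1 for TNF by IFN in si-control. Values that changed sign ran from -0.0232 to 0.21 for Nos3 (TNF by IFN in si-control), and for Nos2 from -0.13 to 0.25 (siRNA with TNF + IFN) and -0.41 to 0.89 (siRNA by TNF). For Gch1 they ran from -0.13 to 0.0396 (IFN in si-control), -0.0763 to 0.0922 (siRNA by TNF) and -0.13 to 0.10 (siRNA by TNF + IFN). Those of Ass1 ran from -0.20 to 0.61 (siRNA without cytokine), -0.46 to 0.43 (TNF in si-control), -0.23 to 0.58 (IFN in si-control), -0.0410 to 0.52 (TNF in si-dnmt), -0.22 to 0.68 (siRNA by TNF), -0.18 to 0.64 (siRNA by IFN), -0.26 to 0.55 (siRNA by TNF + IFN) and -0.0169 to 0.54 (TNF by IFN in si-dnmt). Those of Arg2 ran from -0.19 to 0.78 (siRNA without cytokine) and -0.20 to 0.72 (TNF by IFN in si-control). For Ddah1 they ran from -0.15 to 0.0436 (siRNA with TNF + IFN), -0.0269 to 0.13 (IFN in si-control), -0.0673 to 0.12 (TNF + IFN in si-control), -0.0318 to 0.0377 (IFN in si-dnmt) and -0.17 to 0.0173 (siRNA by IFN), and for Ddah2 from -0.22 to 0.0259 (TNF in si-control) and -0.0642 to 0.16 (IFN in si-control).

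Counts over all genes moved likewise. With the replicate block, the siRNA comparisons called 4941, 5097, 5258 and 4694 genes (2816, 3050, 3103 and 2699 without it, in the order no cytokine, TNF, IFN, TNF + IFN), IFN in si-control 3880 (2209), TNF in si-dnmt 5235 (3209) and IFN in si-dnmt 2892 (1375). For the interactions the block gave 136 (5) for siRNA by TNF, 59 (7) for siRNA by IFN, 638 (81) for siRNA by TNF + IFN, and 646 (162) and 277 (54) for TNF by IFN in si-control and si-dnmt. DESeq2 gave 53, 32, 198, 282 and 98, and the groups compared gave 0, 4, 41, 94 and 122 in that order. Replicates 1 and 2 alone gave 303, 276, 747, 1632 and 737, replicates 3 and 4 alone 1221, 154, 1795, 661 and 318. Without the filter the first 2 were 2 and 12, and RLE scaling gave 14 for siRNA by IFN. Of the siRNA comparisons, replicates 3 and 4 alone called 5543, 5521, 5853 and 5497. For IFN in si-control the groups compared gave 1387 and the pairs of replicates 3903 and 3331, for TNF in si-dnmt replicates 1 and 2 gave 5426, and for IFN in si-dnmt the pairs gave 2987 and 2449. Counts among the 37 further pathway genes moved by over 1.5 times in 43 of 105 fits. Beside the block values of the results section, replicates 1 and 2 alone called 13, 14, 16 and 12 for the siRNA (6, 7, 7 and 7 in the full fit), 10 for IFN in si-control (3), 14 for TNF (8) and 5 for IFN (0) in si-dnmt, and 1, 1, 4, 5 and 5 for the interactions (0, 0, 1, 0 and 0). Replicates 3 and 4 alone called 15, 19, 16 and 13 for the siRNA, 23 for TNF (13) and 10 for IFN in si-control, 4 for IFN in si-dnmt, and 5, 6, 2 and 2 for the interactions other than siRNA by IFN. The block gave 2 each for siRNA by TNF and for TNF by IFN in si-control. Without the filter the siRNA called 4 with IFN and 4 with TNF + IFN, and in si-dnmt TNF called 3 and TNF + IFN 7 (12). The groups compared gave 4 for the siRNA with IFN, 5 for TNF and 1 for IFN in si-dnmt, and DESeq2 5 for IFN in si-control. Leaving out 1 library gave 2 to 5 for TNF in si-dnmt in 5 of 8 fits, and moved 5 other counts, such as 3 for the siRNA with IFN without si-dnmt + IFN replicate 3. Depth limits Arg2 (5 to 70 counts), untreated Nos2 (0 to 13 counts), Slc7a2 and Nos1ap.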
